A study of Mus musculus with 6 samples.

Results

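Basement membranes are thin sheets of matrix that lie under epithelia and endothelia and wrap each adipocyte, muscle fibre and Schwann cell. The genes described here are 34 mouse genes for basement membrane proteins and for the receptors by which cells hold on to them. They are a list of gene names, drawn up with earlier results of these data known: 6 collagen IV chains, 2 multiplexin collagens, 5 laminin α chains, 5 laminin β and γ chains, 4 linkers and proteoglycans, 2 crosslinking or adhesive proteins, 3 members of the Fraser complex and 7 receptors. All 34 were found among the 47069 gene identifiers counted in each mouse, and 34 of 34 passed the filter on low counts that left 17667 genes for testing. Total RNA came from the inguinal subcutaneous white adipose tissue (SC-WAT) of 2-week-old female mice, 3 *Egr1*+/+ and 3 *Egr1*-/-, with 1 library per mouse. The strain is C57BL/6 in the labels and C57BL/6 J in the study's methods. *Egr1* encodes a zinc finger transcription factor, and the *Egr1*-/- mice lack its function in every cell from conception: *LacZ* was knocked in before the start of the coding region, and the reading frame is shifted ahead of the zinc fingers. The mice came from heterozygous intercrosses, in 4 litters, so some of them shared a litter and the p-values measure the spread between these mice.

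A basement membrane is built from a laminin network and a collagen IV network. Laminins are trimers of an α, a β and a γ chain that polymerize at the cell surface, where integrins and dystroglycan bind them. Collagen IV chains also form trimers, which join end to end into a covalent net. Nidogens and the heparan sulfate proteoglycan perlecan tie both networks together. In fat, each adipocyte makes such a sheet around itself, and the capillaries between adipocytes have their own. Fibrillar collagens, by contrast, form the fibres of the interstitial space and are made mainly by fibroblast-like stromal cells.

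Each library held between 29661984 and 42357981 counts on genes, of which 50.0% to 66.3% were mitochondrial, and between 88106 and 149232 counts fell on the 34 genes. For *Egr1* itself the counts were 353, 241 and 711 in the wild-type libraries and 103, 84 and 57 in the mutant ones, the direction that the labels give. Skeletal muscle RNA varied widely: the summed level of 8 muscle markers reached 3294 CPM (counts per gene scaled to a fixed library size by edgeR's TMM method) in *Egr1*+/+ replicate 2 and 2540 CPM in *Egr1*-/- replicate 3, and lay between 92.5 and 1020 CPM in the other mice. Values without both of these muscle-rich mice, an alternative added after the data had been seen, are given where they bear on a result. Since whole tissue was sequenced, fewer cells of a type and less RNA per cell cannot be told apart in any value below.

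The 34 basement membrane and receptor genes showed no shared shift between genotypes, whereas most fibrillar matrix genes had lower values in *Egr1*-/- SC-WAT. By sign, 17 of the 34 genes were lower and 17 higher in *Egr1*-/- mice. Their median log2 fold change was -0.01 beside a median of 0.00 over all tested genes, and single genes ran from -0.44 for *Nid1* to 0.70 for *Col4a6*. By the quasi-likelihood test of edgeR, adjusted over all tested genes after Benjamini and Hochberg, 0 of the 34 passed the 0.05 threshold, with adjusted p-values from 0.258 to 0.977, while 0.017% of all tested genes passed. The inactivated gene *Egr1*, at a log2 fold change of -2.19, did not pass either (adjusted p = 0.0878), so a missing call does not show equal levels. At an unadjusted p under 0.05, 4 genes (*Nid1*, *Lama2*, *Col18a1* and *Nid2*) were lower against 5.6% of all tested genes, and 1 gene (*Agrn*) was higher against 5.06%. In 4 genes (*Lama2*, *Lamc1*, *Nid1* and *Itgb1*) every *Egr1*-/- mouse lay below every *Egr1*+/+ mouse, beside 8.1% of all tested genes. The genotypes were fully separated the other way in *Col4a6*, *Hspg2* and *Agrn*, beside 8.15% of all tested genes. The number of lower genes at an unadjusted p was 2 without *Egr1*+/+ replicate 1, 1 without *Egr1*+/+ replicate 3, and 2 without *Egr1*-/- replicate 2 or 3. The number of higher genes was 3 without *Egr1*+/+ replicate 2 or without *Egr1*-/- replicate 2. The share of all tested genes was not taken in these smaller sets of mice.

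**Figure D1:**
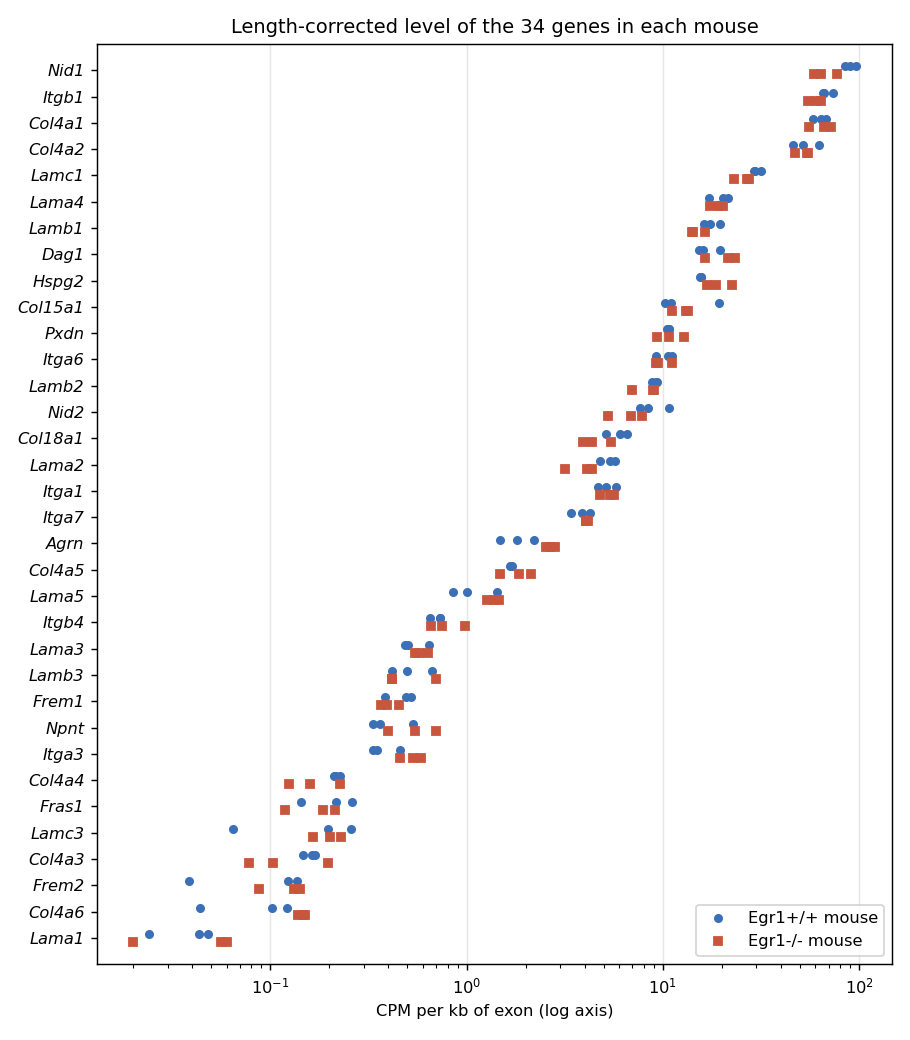
Length-corrected level of each of the 34 genes in each mouse, in CPM per kb of exon on a log axis, with circles for the 3 *Egr1*+/+ mice and squares for the 3 *Egr1*-/- mice. Genes are ordered by their mean in *Egr1*+/+ mice, from *Nid1* at 90.7 down to *Lama1* at 0.0384, and the genotypes overlap in 27 of them.

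Per length of exon, which makes genes comparable with each other, the tissue expressed a small set of chains at high levels. *Nid1*, the main nidogen, was the most abundant with 90.7 ± 5.82 CPM per kb (SD, n = 3 *Egr1*+/+ mice). It was followed by *Itgb1*, the β subunit shared by most laminin and collagen receptors, at 68.6 ± 4.36 CPM per kb. *Col4a1* and *Col4a2*, the chains of the widespread collagen IV trimer, stood at 63.6 ± 4.84 and 53.4 ± 8.12 CPM per kb, ranges that overlapped. The laminin chains with the highest level of their kind were *Lamc1* (30.2 ± 1.27), *Lama4* (19.7 ± 2.25) and *Lamb1* (17.7 ± 1.65 CPM per kb). Together these are the chains of laminin 411, a form known from capillaries and adipocytes. Chains typical of epithelia or of the kidney filter were near the bottom of the order: *Col4a3* had 0.160, *Col4a6* 0.0889 and *Lama1* 0.0384 CPM per kb, and *Lama1* had between 6 and 18 counts per mouse.

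The main collagen IV chains were close to equal between genotypes. *Col4a1* had 509, 437 and 478 CPM in the *Egr1*+/+ mice and 535, 413 and 495 CPM in the *Egr1*-/- mice. Both sets of mice covered nearly the same range, and the log2 fold change was 0.02 with a 95% interval from -0.30 to 0.34 (adjusted p = 0.976). *Col4a2* had 412, 306 and 342 against 364, 311 and 359 CPM, a log2 fold change of -0.04 with an interval from -0.37 to 0.30. The chains pair up in the genome, head to head on opposite strands: the annotated starts of *Col4a1* and *Col4a2* overlap by 22 bases on GRCm38 chromosome 8, those of *Col4a3* and *Col4a4* are 71 bases apart on chromosome 1, and those of *Col4a5* and *Col4a6* 1308 bases apart on chromosome X. The *Col4a2* to *Col4a1* ratio of length-corrected levels was 0.837 ± 0.0664 in *Egr1*+/+ and 0.811 ± 0.0415 in *Egr1*-/- mice (SD, n = 3 each, exact permutation test, two-sided p = 0.7).

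Of the minor collagen IV chains, all but *Col4a5* were measured less firmly. *Col4a5*, which joins the trimers of the kidney, lung and smooth muscle, had 11.3 ± 0.140 and 12.2 ± 2.15 CPM (SD, n = 3 each). Its log2 fold change was 0.11 with an interval from -0.23 to 0.45. *Col4a3* and *Col4a4*, its partners in the kidney filter, had log2 fold changes of -0.34 and -0.36, with intervals from -1.16 to 0.48 and from -0.97 to 0.25. *Col4a3* had 24 to 73 counts per mouse, and 563 bases of its exons are also annotated to the antisense transcript *C430014B12Rik*. *Col4a6* had 12, 29 and 35 counts in *Egr1*+/+ and 39, 37 and 34 in *Egr1*-/- mice. Corrected for library size, that was 0.349, 0.965 and 0.812 CPM against 1.17, 1.19 and 1.10 CPM. Every *Egr1*-/- mouse lay above every *Egr1*+/+ mouse, and the adjusted p was 0.594 at a log2 fold change of 0.70. Without *Egr1*+/+ replicate 1, the lowest mouse, the log2 fold change was 0.37. In that same mouse the summed level of 8 epithelial markers was 4.89 CPM, against 15.8 and 17.7 CPM in the other *Egr1*+/+ mice and 9.12 to 14.4 CPM in *Egr1*-/- mice. It held 1 count each of the keratins *Krt5* and *Krt14*, and none of the 8 markers was at 0 in any mouse. The part of epithelial RNA in the *Col4a6* values was not tested.

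The multiplexins *Col15a1* and *Col18a1* are collagens with heparan or chondroitin sulfate chains that sit at the outer face of basement membranes. *Col18a1*, the precursor of endostatin (GRCm38 chr10:77052178-77166548), had 46.0, 36.1 and 42.6 CPM in *Egr1*+/+ and 38.3, 27.7 and 30.5 CPM in *Egr1*-/- mice. The genotypes overlapped by 1 mouse on each side, and the log2 fold change was -0.37 (SE 0.150, unadjusted p = 0.0357, adjusted p = 0.427 from edgeR). The unadjusted p passed 0.05 in the full set of mice, but not without *Egr1*+/+ replicate 1 or 3 or *Egr1*-/- replicate 2 or 3. *Col15a1* was high in a single mouse, *Egr1*+/+ replicate 1, with 123 CPM against 65.2 to 84.9 CPM in the other mice. Its log2 fold change was -0.11 with all mice and 0.22 without that mouse.

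Among laminin α chains, *Lama2* had lower values in *Egr1*-/- mice and *Lama4* differed little. *Lama2*, the α chain of muscle and Schwann cell basement membranes (GRCm38 chr10:26980036-27619758), had 78.2, 93.3 and 88.1 CPM in *Egr1*+/+ and 71.5, 52.1 and 67.4 CPM in *Egr1*-/- mice. The lowest *Egr1*+/+ mouse lay above the highest *Egr1*-/- mouse, and the log2 fold change was -0.44 (SE 0.144, adjusted p = 0.317). When single mice were left out it ran from -0.53 to -0.31. Without the muscle-rich mice it was -0.43. The summed level of 8 Schwann cell markers was 289 to 404 CPM in *Egr1*+/+ and 197 to 253 CPM in *Egr1*-/- mice. Of the 8, 5 were lower at an unadjusted p under 0.05, beside 5.6% of all tested genes. By sign 2 of the 8 were higher, and none was at 0. The sums of stromal progenitor, macrophage and adipocyte markers were also lower in every *Egr1*-/- mouse. The part of RNA from any of these cell types in the *Lama2* values was not tested. *Lama4* had 246, 208 and 260.5 CPM against 234, 210.4 and 244 CPM, with the ranges overlapping, and its log2 fold change of -0.05 had an interval from -0.35 to 0.25.

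The remaining α chains were at lower levels. *Lama5*, a chain of mature endothelium and epithelium, had 11.4, 16.3 and 9.67 CPM in *Egr1*+/+ and 16.7, 14.5 and 15.7 CPM in *Egr1*-/- mice. The genotypes overlapped through *Egr1*+/+ replicate 2, and the log2 fold change was 0.33 (SE 0.188, adjusted p = 0.591). Without that mouse the log2 fold change was 0.57, with an unadjusted p under 0.05, and without *Egr1*+/+ replicate 3 it was 0.17. *Lama3*, the α chain of skin laminin 332, had 180 to 234 counts per mouse and a log2 fold change of 0.10 with an interval from -0.29 to 0.49. For *Lama1*, an embryonic chain, the interval from -0.97 to 1.44 leaves a difference of either sign undetectable at this depth.

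The β and γ chains had small differences. *Lamc1*, the γ chain of most laminins, had 262, 242 and 245 CPM in *Egr1*+/+ and 228, 191 and 222 CPM in *Egr1*-/- mice. The genotypes did not overlap, and the log2 fold change was -0.23 (SE 0.122, adjusted p = 0.571). *Lamb1*, the β chain of laminin 411, had 193, 161 and 172 CPM against 141, 140.4 and 164 CPM. One *Egr1*-/- mouse lay above the lowest *Egr1*+/+ mouse, and the log2 fold change was -0.24 (adjusted p = 0.556). *Lamb2*, the β chain of muscle and nerve basement membranes, had a log2 fold change of -0.13 with an interval from -0.42 to 0.16. *Lamb3*, partner of *Lama3* in skin, and *Lamc3* had 85 to 144 and 17 to 54 counts per mouse. Their intervals, from -0.66 to 0.59 and from -0.85 to 1.27, covered 0 widely.

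**Figure D2:**
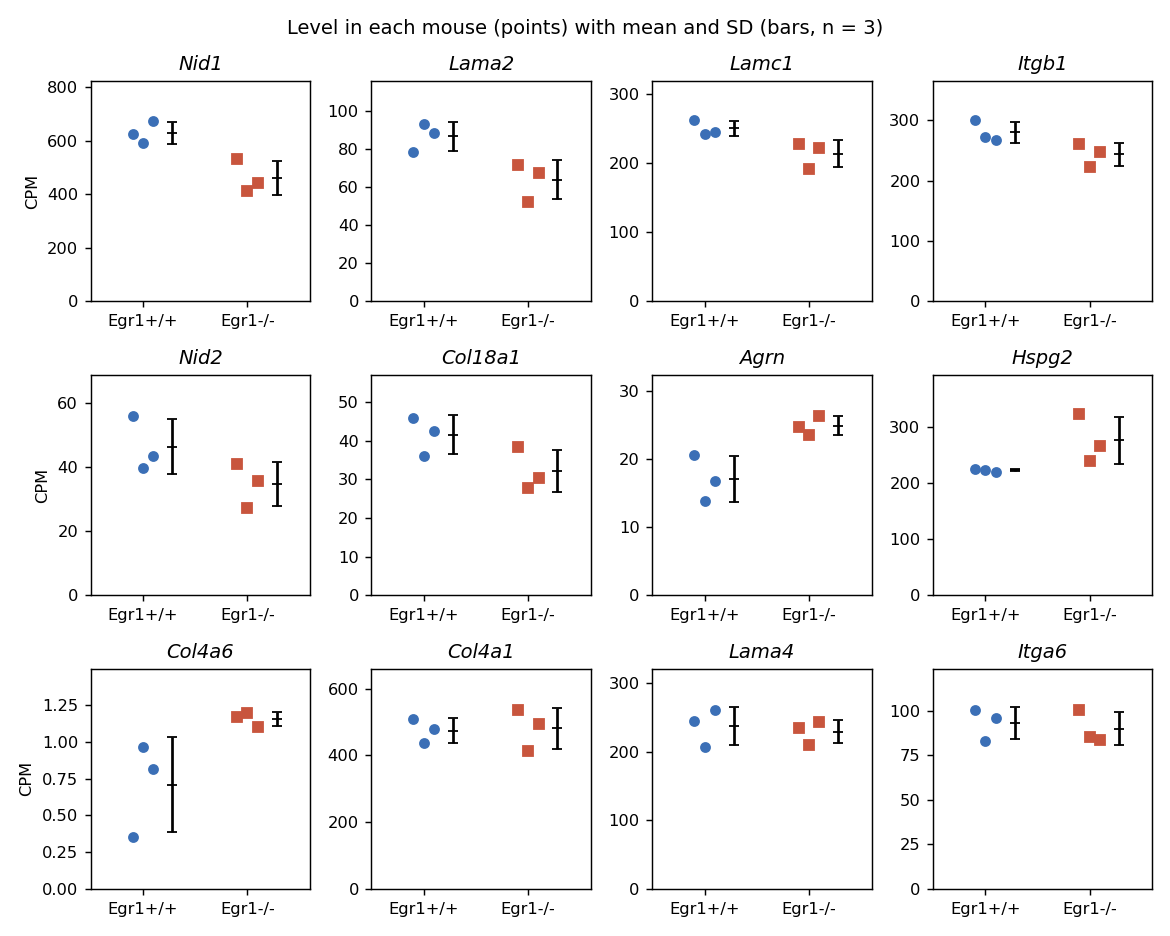
Level in CPM of 12 genes in each of the 3 *Egr1*+/+ mice (circles) and 3 *Egr1*-/- mice (squares), with the mean and SD of each genotype as bars and every axis starting at 0. *Nid1*, *Lama2*, *Lamc1* and *Itgb1* are lower in every *Egr1*-/- mouse, *Agrn*, *Hspg2* and *Col4a6* higher in every one, and *Nid2*, *Col18a1*, *Col4a1*, *Lama4* and *Itga6* overlap.

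Of the 4 linkers and proteoglycans, *Nid1* and *Nid2* had negative log2 fold changes and *Agrn* and *Hspg2* positive ones, and 0 passed the adjusted threshold. *Nid1* (GRCm38 chr13:13437551-13512269), whose product bridges laminin γ1 and collagen IV, had 624, 592 and 673 CPM in *Egr1*+/+ and 534, 411 and 443 CPM in *Egr1*-/- mice. All *Egr1*-/- mice lay below all *Egr1*+/+ mice, with means of 629.8 ± 40.4 and 463 ± 63.6 CPM (SD, n = 3 each). The log2 fold change was -0.44 (SE 0.143, unadjusted p = 0.0124, adjusted p = 0.314 from edgeR). When single mice were left out it ran from -0.56 to -0.36, and the unadjusted p passed 0.05 except without *Egr1*+/+ replicate 3. *Nid2*, the second nidogen (chr14:19751265-19811787), had 55.9, 39.7 and 43.5 CPM against 40.8, 27.3 and 35.7 CPM. The highest *Egr1*-/- mouse lay above the lowest *Egr1*+/+ mouse, and the log2 fold change was -0.42 (SE 0.177, unadjusted p = 0.0409, adjusted p = 0.444). That unadjusted call was lost without *Egr1*+/+ replicate 1 or 3 or *Egr1*-/- replicate 2 or 3. The *Nid2* value is also uncertain because 437 bases of its exons overlap the antisense gene *Rtraf*, which had 9560 counts over the 6 mice beside 8298 for *Nid2*, and the strand setting of the counting is not given in the sources used here.

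*Agrn*, which encodes agrin, a proteoglycan that binds laminin and dystroglycan and clusters receptors at the nerve-muscle synapse (GRCm38 chr4:156165290-156197488), had 20.6, 13.8 and 16.8 CPM in *Egr1*+/+ and 24.6, 23.5 and 26.3 CPM in *Egr1*-/- mice. The *Egr1*-/- mice lay close together and all above the *Egr1*+/+ mice, with means of 24.8 ± 1.4 and 17.1 ± 3.40 CPM (SD, n = 3 each). The log2 fold change of 0.54 (SE 0.152) had the lowest p of the 34 genes, 0.00614 unadjusted and 0.258 adjusted. With each mouse left out it ran from 0.41 to 0.68 and kept an unadjusted p under 0.05 each time. Without both muscle-rich mice it was 0.37, and the unadjusted p no longer passed 0.05. *Hspg2*, which encodes perlecan (chr4:137468769-137570630), had 225, 224 and 221 CPM against 323, 239.7 and 268 CPM. The *Egr1*+/+ mice were nearly identical and the *Egr1*-/- mice spread widely above them. Its log2 fold change was 0.31 (SE 0.138, unadjusted p = 0.0519, adjusted p = 0.473). It was 0.18 without *Egr1*-/- replicate 1, the highest mouse, and 0.41 at most with another mouse left out.

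Other tools placed *Nid1* and *Agrn* on either side of the threshold. In DESeq2, *Nid1* had an adjusted p of 0.0466, the only one of the 29 genes with an adjusted p there to pass, while 1.88% of the genes with an adjusted p in DESeq2 passed in the lower direction. Without the filter on low counts, edgeR gave *Agrn* an adjusted p of 0.0378, again 1 of 34 genes, while 0.635% of the genes in that fit passed in the higher direction. That fit takes in 38261 genes, most of the added ones with almost no counts.

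Since the inactivated gene encodes a DNA-binding protein, the promoters of the 34 genes were searched for its known site, on both strands and in its 9-base forms GCGTGGGCG and GCGGGGGCG. Promoters from 250 bases before to 50 bases after a start were at hand for 23 of the 34 genes (RefSeq, GRCm38.p6). The site was present in 3 of these 23 genes, *Agrn*, *Dag1* and *Lamb1*, each in the second form, beside 3.93% of 27025 genes with a promoter in the same table. A match to these letters is a description of the sequence and no measure of binding. The stretches are shown because they let the site be set beside the values of these genes, with the 9 matching bases in capitals, which read CGCCCCCGC where the site lies on the other strand. None overlaps an annotated exon of GENCODE M21: that of *Agrn* lies in an intron of the gene, and the other two lie upstream of their genes.
*Agrn*, chr4:156186262-156186310, minus strand, before an internal start: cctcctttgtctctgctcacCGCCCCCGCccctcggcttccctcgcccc
*Dag1*, chr9:108263982-108264030, minus strand: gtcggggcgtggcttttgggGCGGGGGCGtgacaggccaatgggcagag
*Lamb1*, chr12:31265199-31265233, plus strand: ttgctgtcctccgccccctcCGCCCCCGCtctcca

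The log2 fold changes of the 3 genes with the site were 0.54 for *Agrn*, 0.26 for *Dag1* and -0.24 for *Lamb1*, so they did not share a sign. The GC box GGGCGG, the letters bound by SP1-type factors, whose GGGCG stretch it shares with the EGR1 site so that both can overlap, was present in 16 of the 23 genes beside 38.2% of genes. The regions upstream of the first annotated base of *Nid1* and *Agrn* are shown because these genes had the lowest p-values in either direction, with GC boxes in capitals on either strand. That of *Nid1* holds 1 GC box in 199 bases and that of *Agrn* 12 in 250 bases.
*Nid1*, chr13:13437352-13437550, plus strand: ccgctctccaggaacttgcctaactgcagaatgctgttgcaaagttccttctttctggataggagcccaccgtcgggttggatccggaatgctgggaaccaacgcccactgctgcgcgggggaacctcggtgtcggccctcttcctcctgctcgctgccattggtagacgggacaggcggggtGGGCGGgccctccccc
*Agrn*, chr4:156197489-156197738, minus strand: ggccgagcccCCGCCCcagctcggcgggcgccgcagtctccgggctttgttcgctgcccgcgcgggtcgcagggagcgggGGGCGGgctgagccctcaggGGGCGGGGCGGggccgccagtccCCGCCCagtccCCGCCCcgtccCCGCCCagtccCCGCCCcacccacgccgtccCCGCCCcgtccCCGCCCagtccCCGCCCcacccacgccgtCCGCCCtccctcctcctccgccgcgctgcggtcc

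Crosslinking and adhesive proteins differed little or were too low to resolve. *Pxdn*, the peroxidase that makes the sulfilimine bond of the collagen IV net, had 104, 102 and 103 CPM in *Egr1*+/+ and 124, 90.3 and 104 CPM in *Egr1*-/- mice. The *Egr1*-/- mice lay on both sides of the *Egr1*+/+ mice, and the log2 fold change was 0.04 with an interval from -0.26 to 0.34. *Npnt*, which encodes nephronectin, a ligand of integrin α8β1, had 55 to 117 counts per mouse and 2.06 ± 0.541 CPM against 2.75 ± 0.755 CPM (SD, n = 3 each), a log2 fold change of 0.42 (SE 0.290). The Fraser complex anchors the epidermal basement membrane to the dermis, and its genes *Fras1*, *Frem1* and *Frem2* had log2 fold changes of -0.26, -0.20 and 0.29. *Frem2* had 22 to 62 counts per mouse and an interval from -0.73 to 1.31.

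Receptors had log2 fold changes from -0.20 for *Itgb1* to 0.47 for *Itga3*, and by sign 2 of the 7 were lower and 5 higher. At an unadjusted p under 0.05, 0 of the 7 passed, beside 5.6% of all tested genes lower and 5.06% higher. *Itgb1* had 300.2, 272 and 268 CPM in *Egr1*+/+ and 260.3, 223 and 247 CPM in *Egr1*-/- mice. The genotypes did not overlap, but the highest *Egr1*-/- mouse lay just below the lowest *Egr1*+/+ mouse, and the log2 fold change was -0.20 (SE 0.123, adjusted p = 0.619). *Itga1*, the α subunit of a collagen IV receptor, had 96.7 ± 10.3 and 98.3 ± 8.32 CPM (SD, n = 3 each), with an interval of the log2 fold change from -0.26 to 0.31. *Itga6*, the α subunit of laminin receptors on endothelium and epithelium, had 100.3, 83.0 and 95.9 CPM against 101, 85.5 and 83.8 CPM. Both genotypes covered the same range, and the log2 fold change was -0.05 with an interval from -0.34 to 0.24. *Itgb4*, the hemidesmosome subunit that pairs with it, had 5.12, 5.16 and 4.57 CPM against 6.87, 4.62 and 5.24 CPM, overlapping, with a log2 fold change of 0.17 and an interval from -0.26 to 0.61.

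*Dag1*, which encodes both subunits of dystroglycan, the receptor that binds laminin, agrin and perlecan through its sugar chains, had 125, 96.7 and 102 CPM in *Egr1*+/+ and 137, 104 and 148 CPM in *Egr1*-/- mice. The ranges overlapped, and the log2 fold change was 0.26 with an interval from -0.10 to 0.63 (adjusted p = 0.617). Without the muscle-rich mice it was 0.09. *Itga7*, the laminin receptor of muscle and of mural cells, had 31.3, 27.7 and 34.6 CPM against 32.7, 33.0 and 33.6 CPM. The *Egr1*-/- mice lay within the *Egr1*+/+ range. Of the muscle-rich mice, *Egr1*+/+ replicate 2 was the lowest of all mice and *Egr1*-/- replicate 3 the highest of its genotype. The log2 fold change of *Itga7* was 0.09 with all mice and -0.0037 without these muscle-rich ones. *Itga3*, an epithelial laminin receptor, had 2.18 ± 0.393 and 3.01 ± 0.375 CPM (SD, n = 3 each), a log2 fold change of 0.47 with an interval from -0.05 to 0.98 (adjusted p = 0.513).

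**Figure D3:**
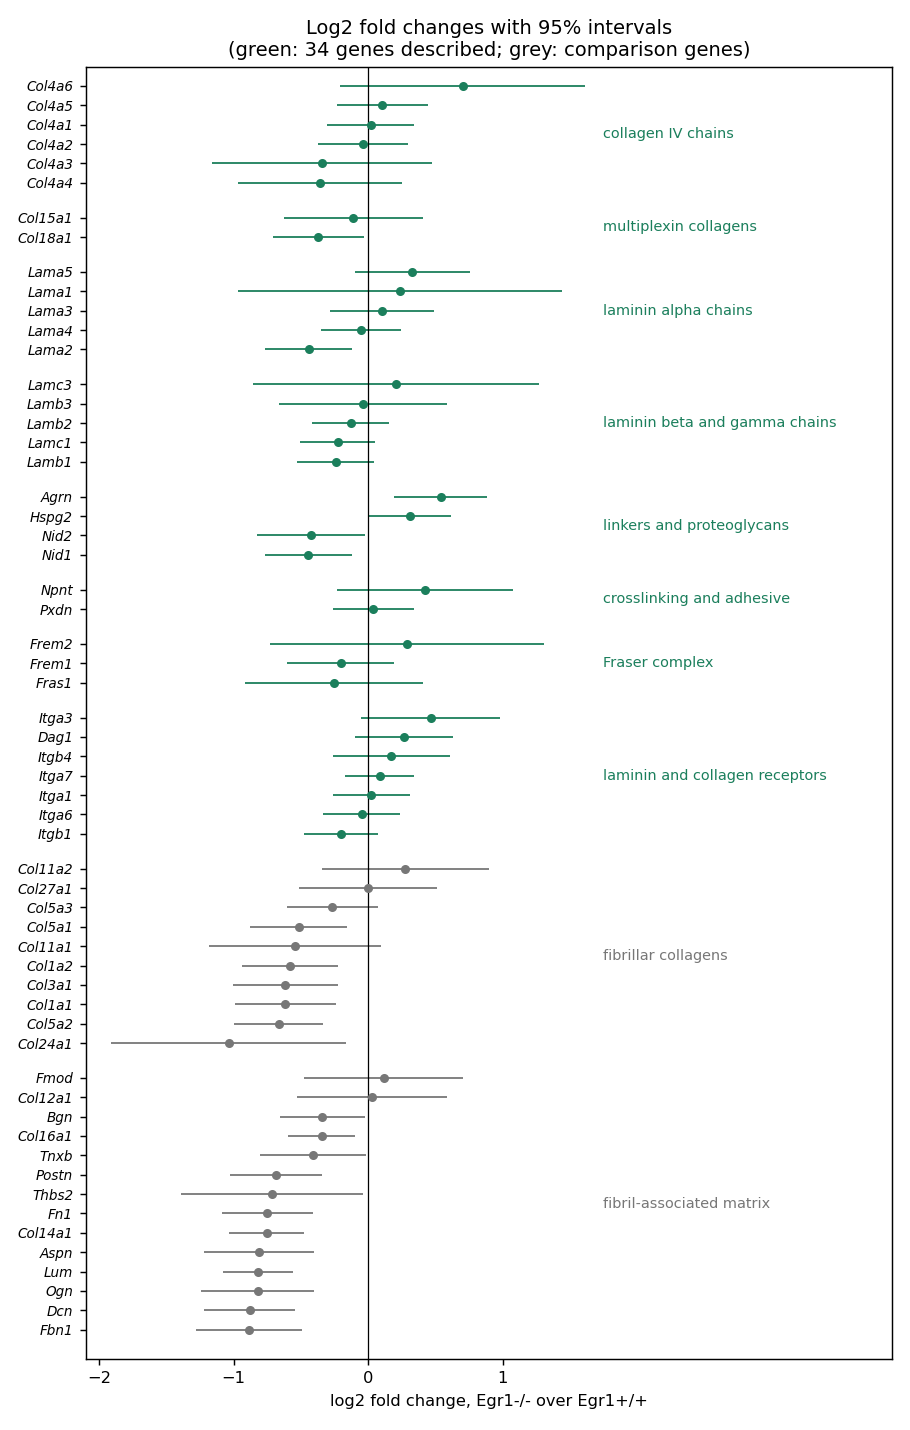
Log2 fold change of *Egr1*-/- over *Egr1*+/+ mice with its 95% interval for the 34 basement membrane and receptor genes (green, by role) and for 24 tested fibrillar and fibril-associated genes (grey). The green points scatter around 0 between -0.44 and 0.70, and most grey points lie left of 0, with medians of -0.56 for fibrillar collagens and -0.73 for fibril-associated genes.

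The fibrillar matrix genes of the same mice gave the contrast. Of 11 fibrillar collagen genes, 10 were tested, with a median log2 fold change of -0.56. At an unadjusted p under 0.05, 6 of these were lower, beside 5.6% of all tested genes. *Col2a1*, the cartilage collagen, was too low to test. *Col1a1*, a chain of the most common fibril, had 780.0, 896 and 809 CPM in *Egr1*+/+ and 662, 457 and 501 CPM in *Egr1*-/- mice. No mice overlapped, at a log2 fold change of -0.62 (adjusted p = 0.242). Of 14 genes for proteins on or around the fibrils, 12 were lower and 0 higher at an unadjusted p, with a median of -0.73, among them *Lum* at -0.82 (adjusted p = 0.0928). No gene of either list passed edgeR's adjusted threshold. The study, which used DESeq2, reported *Col1a1*, *Col1a2*, *Col5a2*, *Col14a1*, *Fn1*, *Postn* and *Dcn* as lower in these libraries. It also reported lower RT-qPCR levels for all of these but *Col1a2*. The list of fibrillar genes was drawn up with their direction in these mice known, and it is no independent support.

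The same contrast was also described mouse by mouse. For each mouse, the level of each gene was divided by its *Egr1*+/+ mean, and the median over a list was taken on the log2 scale. In *Egr1*-/- replicates 1, 2 and 3 this median was 0.09, -0.18 and 0.03 for the basement membrane and receptor genes. For the fibrillar collagens it was -0.27, -0.75 and -0.64. The values of the *Egr1*+/+ mice lay between -0.04 and 0.06 for the first list and between -0.05 and 0.13 for the fibrillar collagens. They are near 0 by construction, since the mean of these same mice is the divisor. Replicate 2 was the lowest of the *Egr1*-/- mice for both lists, and in all 3 mice the fibrillar median lay below the basement membrane median. These medians restate the fold changes of a fibrillar list drawn up with its direction known, and are no independent support.

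**Figure D4:**
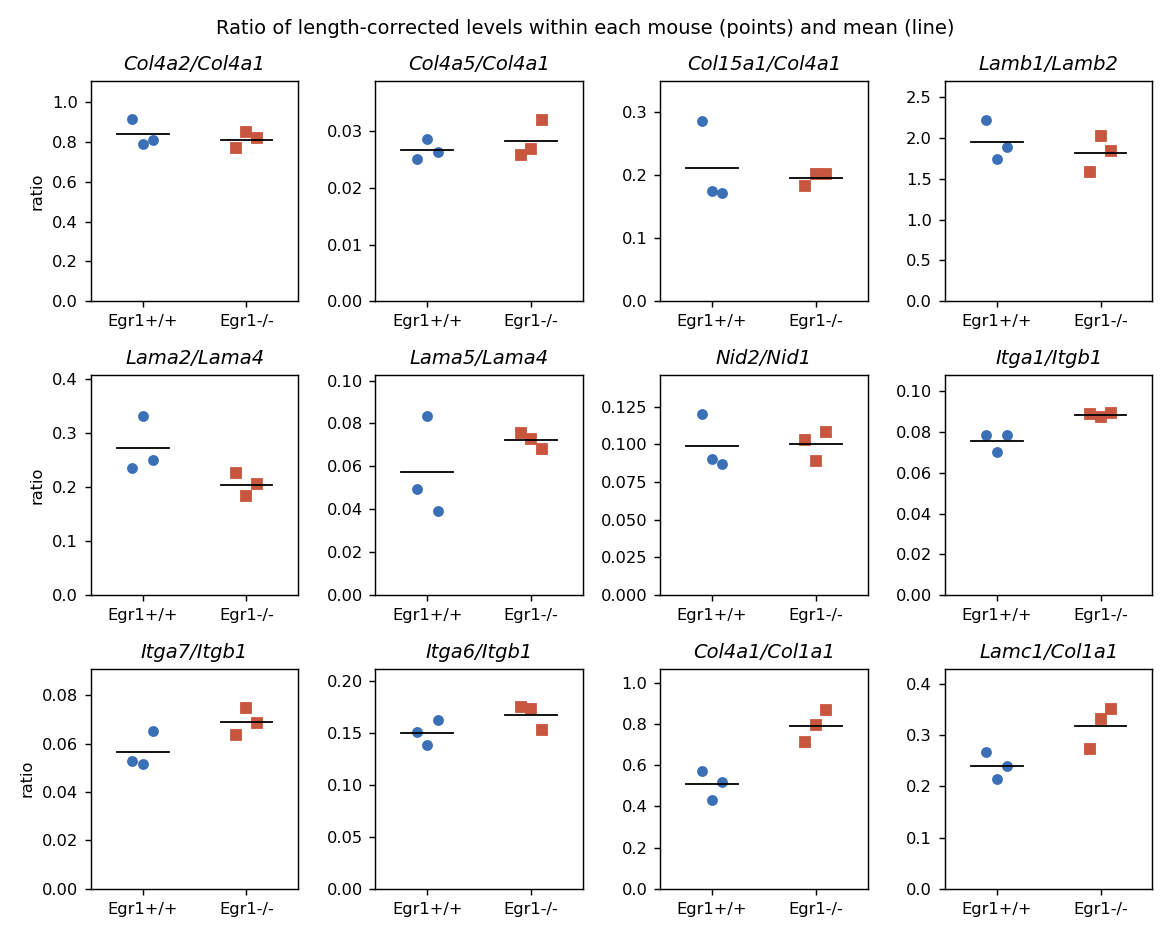
Ratio of the length-corrected levels of 12 pairs of genes within each mouse, with circles for *Egr1*+/+ and squares for *Egr1*-/- mice, the mean as a line and every axis starting at 0. The genotypes do not overlap in *Lama2*/*Lama4*, *Itga1*/*Itgb1*, *Col4a1*/*Col1a1* and *Lamc1*/*Col1a1*, and overlap in the other 8.

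Ratios within a mouse do not depend on how libraries are scaled, and 12 of them were compared with exact two-sided permutation tests, in which 3 mice against 3 cannot give a p below 0.1. The ratio of *Col4a1* to *Col1a1*, basement membrane to fibrillar collagen, was 0.573, 0.429 and 0.519 in *Egr1*+/+ and 0.711, 0.794 and 0.868 in *Egr1*-/- mice. Every *Egr1*-/- mouse had the higher ratio, on average 1.57-fold (exact permutation test, p = 0.1, 0.3 after Benjamini-Hochberg adjustment over the 12 ratios). The ratio of *Lamc1* to *Col1a1* was also higher in 3 of 3 *Egr1*-/- mice, by 1.32-fold (exact p = 0.1, adjusted 0.3). Both ratios were chosen with the lower fibrillar collagen values of these *Egr1*-/- mice known. Their tests therefore restate that difference and are no independent support. The ratio of *Lama2* to *Lama4* was 0.235, 0.332 and 0.250 in *Egr1*+/+ and 0.225, 0.183 and 0.204 in *Egr1*-/- mice. It was lower in 3 of 3 *Egr1*-/- mice, at 0.756 of the *Egr1*+/+ level (exact p = 0.1, adjusted 0.3). The *Itga1* to *Itgb1* ratio was 0.0758 ± 0.00480 and 0.0885 ± 0.00085 (SD, n = 3 each, exact permutation p = 0.1, adjusted 0.3).

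The other 8 ratios overlapped between genotypes, with exact p-values from 0.2 to 1. The *Nid2* to *Nid1* ratio was 0.0990 ± 0.0183 in *Egr1*+/+ and 0.0999 ± 0.00968 in *Egr1*-/- mice (SD, n = 3 each). The *Lamb1* to *Lamb2* ratio was 1.95 ± 0.241 and 1.82 ± 0.223. For *Lama5* to *Lama4* the means were 0.0573 ± 0.0231 and 0.0723 ± 0.00374, with *Egr1*+/+ replicate 2 above all other mice.

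Further genes of the same structures were taken from lists by role. Of 16 other basement membrane proteins, all tested, 3 were lower and 1 higher at an unadjusted p, with a median log2 fold change of -0.20. *Smoc1*, a SPARC-related calcium-binding protein, had 29.2 ± 2.83 and 19.1 ± 1.36 CPM (SD, n = 3 each), a log2 fold change of -0.61. *Sparc*, a collagen-binding protein of basement membranes and of the interstitial matrix, was at -0.55, and *Papln*, which encodes papilin, at 0.79, with adjusted p-values of 0.291 and 0.246. Of 10 other laminin and collagen receptors, 4 were lower and 0 higher at an unadjusted p under 0.05. By sign 8 of the 10 were lower and 2 higher, with a median of -0.30. Those with the lowest p were *Sdc2*, a syndecan (-0.50), *Ddr2*, a receptor for fibrillar collagen (-0.61), and *Itga11*, an integrin subunit that also binds fibrillar collagen (-0.50), with adjusted p-values from 0.214 to 0.419. The other genes lower at an unadjusted p under 0.05, named after their values were seen, were *Fbln2* (-0.41) and *Itga2* (-0.45). *Fbln2* encodes a fibulin of basement membranes and elastic fibres, and *Itga2* a subunit of a receptor for collagens and laminins. The genotypes did not overlap in either, beside 8.1% of all tested genes separated in the lower direction.

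Markers of the cell types that make these proteins were measured in the same libraries. The summed level of 10 endothelial markers was 463 to 553 CPM in *Egr1*+/+ and 431 to 633 CPM in *Egr1*-/- mice, and that of 9 mural markers 577 to 777 and 476 to 689 CPM. An unadjusted p under 0.05 was found for 5.6% of all tested genes in the lower direction and 5.06% in the higher. By it, 1 endothelial marker was lower and 0 higher, and 1 mural marker was lower and 1 higher. The summed level of 8 stromal progenitor markers, by contrast, was 872 to 930 CPM in *Egr1*+/+ and 495 to 715 CPM in *Egr1*-/- mice, with 6 of 8 lower. The sum of 8 adipocyte markers was 6679 to 6968 and 5300.4 to 6332 CPM, with 3 of 8 lower and 1 higher. Of 6 beige or brown adipocyte markers, 5 were tested, and 5 of these 5 were higher. The study reported *Ucp1*, *Cidea*, *Dio2*, *Ppargc1a* and *Cox8b* of this list as higher in the same libraries. Their direction was therefore known, and they are no independent support. No marker of these lists was at 0 in any mouse. The part of stromal, vascular or fat cell RNA in the values of *Nid1*, *Lama2*, *Agrn* or the fibrillar collagens was not tested.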

How the data were processed

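Raw read counts per gene were deposited by the authors, 1 file per mouse. Per the labels and methods, RNA depleted of ribosomal RNA was made into strand-specific libraries, and reads were mapped to GRCm38 with TopHat and Bowtie and assigned to GENCODE M8 genes with featureCounts. Strand and multimapping settings are not given in the sources used here, so antisense and near-identical genes may share reads. Genes were named through GENCODE M21, which matched 46488 of 47069 identifiers. Genotypes were compared by edgeR 4.0.16 under R 4.3.3 (TMM, filterByExpr, quasi-likelihood test, Benjamini-Hochberg adjustment over 17667 genes, threshold 0.05), without covariate. CPM used TMM-scaled libraries, and per-length levels the union of exons. Ratios of length-corrected levels were compared with exact permutation tests. The fits were tested on simulated data. Alternatives were DESeq2 1.42.0, RLE and upper-quartile scaling, mitochondrial genes left out, no filter, the replicate number as a block, each mouse left out, and both muscle-rich mice left out. Same-numbered mice did not deviate together (r of -0.089, 0.106 and -0.126), so numbers were not taken as pairs. Every member is described, with values per mouse for those with an unadjusted p under 0.05 or no overlap, the most abundant gene of each role, and *Itga6*, *Itga7* and *Itgb4*. Values per mouse of *Col4a2*, *Lama5*, *Lamb1* and *Dag1* were added after they had been seen. The members, gene lists and ratios were chosen with earlier results of these data known.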

Additional observations from a re-analysis of the deposited data

How the results depend on the processing

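The median over the 34 genes and the absence of adjusted calls among them held under RLE and upper-quartile scaling, without mitochondrial genes and with the replicate block. With the replicate block, 0 genes passed, and *Nid1* had a log2 fold change of -0.45 (adjusted p = 0.348) and *Agrn* of 0.56 (0.274). The number of the 34 genes past the adjusted threshold was 1 in DESeq2 (*Nid1*) and 1 without the filter on low counts (*Agrn*), with 0 when any mouse was left out. Over all genes, 3 passed in the main fit, 372 in DESeq2 and 552 without the filter. Genes higher at an unadjusted p numbered 2 in DESeq2, 2 without mitochondrial genes and 3 without the filter, and 1 to 3 with 1 mouse left out. Genes lower numbered 1 to 5 with 1 mouse left out. The share of all genes at an unadjusted p was not taken in these other fits, so these counts cannot be set beside it. The fibrillar collagen median ran from -0.72 to -0.47 with 1 mouse left out and was -0.43 without the muscle-rich mice. The cause of these shifts was not tested.

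Leaving out 1 mouse turned the sign of 13 of the 34 log2 fold changes, none of them past a threshold. They ran from -0.062 to 0.12 for *Col4a1*, -0.13 to 0.071 for *Col4a2*, -0.016 to 0.24 for *Col4a5*, -0.28 to 0.22 for *Col15a1*, -0.022 to 0.59 for *Lama1*, -0.14 to 0.014 for *Lama4*, -0.33 to 0.16 for *Lamb3*, -0.20 to 0.61 for *Lamc3*, -0.085 to 0.15 for *Pxdn*, -0.11 to 0.59 for *Frem2*, -0.047 to 0.094 for *Itga1*, -0.13 to 0.0018 for *Itga6* and -0.0045 to 0.30 for *Itgb4*. The log2 ratios that turned ran from -0.084 to 0.020 for *Col4a2*/*Col4a1*, -0.017 to 0.14 for *Col4a5*/*Col4a1*, -0.20 to 0.17 for *Col15a1*/*Col4a1* and -0.061 to 0.17 for *Nid2*/*Nid1*. Without the muscle-rich mice the sign turned for *Col4a1* (-0.058), *Col4a5* (-0.026), *Lamb3* (0.29), *Itga1* (-0.064) and *Itga7* (-0.0037). Below about 100 counts per mouse, as in *Col4a3*, *Col4a6*, *Lama1*, *Lamc3* and *Frem2*, the intervals were too wide to show differences of the size seen in *Nid1*.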

Other observations

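Dystroglycan binds laminin only through sugar chains that a set of dedicated enzymes builds, and it is tied to the cytoskeleton by the dystrophin complex. Of 18 genes for these enzymes and complex members, all tested, 2 were lower and 2 higher at an unadjusted p under 0.05. Over all tested genes these shares were 5.6% and 5.06%. The genotypes were fully separated in 3 of the 18 in the lower direction and 2 in the higher, beside 8.1% and 8.15% of all tested genes. Their median log2 fold change was -0.10, and 0 passed edgeR's adjusted threshold. *Sgce*, a sarcoglycan found outside muscle too, had 22.8, 27.2 and 29.1 CPM in *Egr1*+/+ and 19.8, 18.5 and 18.2 CPM in *Egr1*-/- mice, with no overlap and a log2 fold change of -0.48 (adjusted p = 0.227). *Sntb1*, a syntrophin that binds dystrophin, had 27.9 ± 0.884 and 22.1 ± 1.62 CPM (SD, n = 3 each), at -0.34. *Pomt1*, an enzyme that starts the sugar chain, had 9.42 ± 0.653 and 12.3 ± 1.18 CPM (SD, n = 3 each), at 0.38 (adjusted p = 0.345).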
